A study of Mus musculus with 11 samples.

Results

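The tricarboxylic acid cycle enzymes described here are 9 genes chosen by symbol: Cs, Idh3a, Idh3b, Idh3g, Ogdh, Suclg1, Sucla2, Fh1 and Mdh2. The rule uses no measured value, and all 9 were found among the 48709 Ensembl genes counted. All 9 were also among the 17293 genes that passed the filter on low counts. RNA came from the CA1 field of the mouse hippocampus at 3 months of age, in 6 libraries of CamkdeltaC transgenic animals and 5 of their control littermates. CamkdeltaC names the delta C variant of a calcium/calmodulin-dependent protein kinase. Mice carrying it are known for a failing heart, and the series asks how that relates to impaired memory. The labels used here do not give the promoter that drives the transgene. Both sexes were used, and the sex, litter and batch of a library are not given in the labels used here. The labels do not say whether libraries come from different animals, so the p-values measure the spread between these libraries, which may in part be technical.

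The cycle runs in the mitochondrial matrix. It oxidises the acetyl group of acetyl-CoA to carbon dioxide and passes the electrons, as NADH and reduced flavin, to the respiratory chain. In neurons it also supplies the carbon skeletons of glutamate and GABA. All of its enzymes are encoded in the nucleus, and several are complexes whose subunits come from different genes.

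Transgenic libraries held 24403918 to 34153726 counts and control libraries 14263784 to 36898689, with control 5 the shallowest. Mitochondrially encoded genes took 3.0% to 4.15% of the counts in transgenic libraries and 3.86% to 5.03% in controls, and the part of this share in the results was not tested. Each member had at least 964 counts in every library (Fh1 in control 5). Libraries differed in how counts followed the GC content of transcripts. The slope of log2 CPM, counts scaled to library size, for each 10 points of GC was -0.0607 to 0.274 in transgenic libraries and -0.22 to -0.0617 in controls. The transgenic slopes were spread over that range, and each was above every control slope. The lowest, in transgenic 6, lay beside that of control 2, at -0.0617. The GC trend and the group therefore cannot be fully told apart. Removing the trend may also remove a difference between the groups. Each member's fold change is given as counted and after each library's GC trend was removed, and that of other genes also after removal where it moved by over 1.5 times. Camk2d, the mouse gene for this kinase, averaged 67.8 ± 36.7 CPM over the 6 transgenic and 72.0 ± 18.6 CPM over the 5 control libraries (± SD), at a fold change of -0.08 (edgeR adjusted p = 0.873), and 0.05 with the GC trend removed (adjusted p = 0.946). Whether the transgene is transcribed in CA1 is not given in the labels, so this does not check them. Of 10 markers of CA1 pyramidal neurons, 8 had a fold change above 0, or 6 with the GC trend removed. Their median was 0.15 on the log2 scale, and 0.06 with the GC trend removed. The 1 marker called, Snap25, fell (-0.27, edgeR adjusted p = 0.0310, and 0.13, adjusted p = 0.121, with the GC trend removed). The 10 markers summed to 4666 to 5065 CPM in transgenic libraries and 4861 to 5029 CPM in controls. Markers of oligodendrocytes summed to 3578 to 6152 CPM in transgenic libraries and 2912 to 5047 CPM in controls, with a median fold change over 7 genes of 0.29 on the log2 scale, and 0.23 with the GC trend removed. None of these 7 passed the edgeR test, as counted or with the GC trend removed. Of 8 microglia markers, which summed to 337 to 428 CPM in transgenic libraries and 299 to 355 CPM in controls, 3 rose. These were Csf1r, C1qa and Trem2 (0.25, 0.29 and 0.45), which with the GC trend removed were at 0.12, 0.08 and 0.39 (edgeR adjusted p = 0.326, 0.648 and 0.0511). Slc32a1 of 8 interneuron markers and Aldh1l1 of 8 astrocyte markers rose (0.22 and 0.24), and Slc1a2 of the astrocyte and Slco1a4 of 6 endothelial markers fell (-0.17 and -0.36). With the GC trend removed these were at 0.00, 0.11, -0.06 and -0.04, and did not pass (edgeR adjusted p = 0.986, 0.389, 0.492 and 0.885). The part of these cells in the results below was not tested, and in bulk tissue fewer cells of a type and less RNA per cell cannot be told apart.

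The members were well expressed. As CPM per kilobase of exon, in controls, Idh3b stood at 74.5 ± 2.84 and Mdh2 at 72.0 ± 2.31, with overlapping libraries. Ogdh (51.5 ± 2.35), Cs (49.4 ± 1.88), Idh3g (47.1 ± 4.38), Idh3a (38.7 ± 2.21) and Sucla2 (36.6 ± 2.54) followed, each overlapping its neighbour in this order. Fh1 at 21.4 ± 1.26 and Suclg1 at 18.1 ± 1.21 were the lowest (SD, n = 5 throughout). The neighbours that did not overlap were Mdh2 and Ogdh, Sucla2 and Fh1, and Fh1 and Suclg1. In these units Suclg1 lay at percentile 84.8 and Idh3b at percentile 97.7 of all genes tested. In transgenic libraries Mdh2 (81.4 ± 5.31) and Idh3b (80.5 ± 4.26) again led, and Fh1 (23.0 ± 0.760) and Suclg1 (19.9 ± 0.499) were again lowest (SD, n = 6). Length is that of all annotated exons of a gene, so rarely used exons lower these levels.

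**Figure D1:**
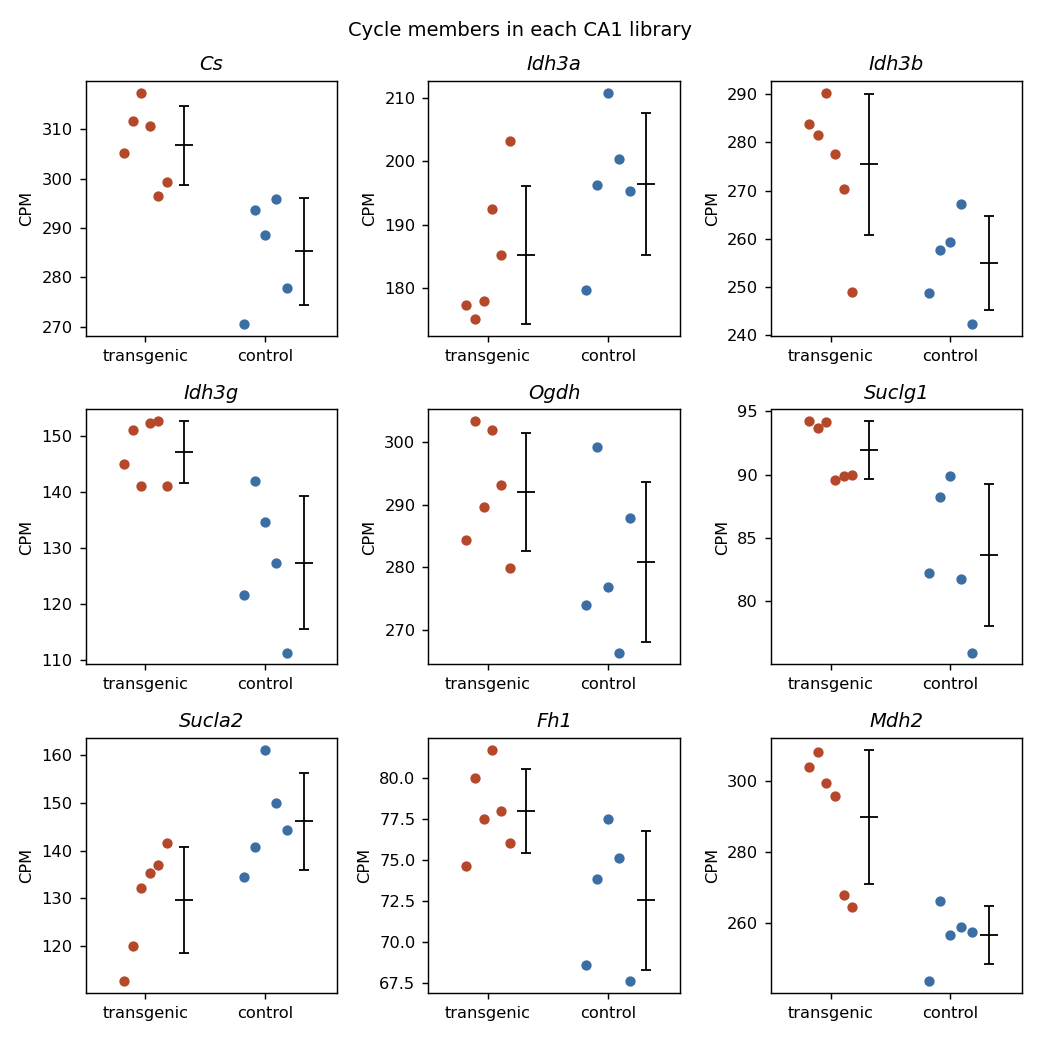
Level of each cycle member in CPM (vertical axes, which do not start at 0) in 6 transgenic libraries (red, left) and 5 control libraries (blue, right); bars give mean ± SD. Cs did not overlap between the groups, with 296 to 317 CPM in transgenic and 271 to 296 CPM in control libraries.

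In transgenic CA1, Idh3g and Mdh2 rose. No member fell in this edgeR fit, nor with DESeq2 or limma, after adjustment over all genes. Sucla2 was the 1 member lower at an unadjusted p under 0.05 with edgeR, and edgeR called it lower without transgenic 6 and with 1 surrogate variable (adjusted p = 0.0406 and 0.0405). The 2 of 9 members that rose stand beside 7.41% of all tested genes that rose and 10.5% that fell at an edgeR adjusted p under 0.05 (17.9% in either direction). All changes were small: fold changes on the log2 scale ran from -0.17 for Sucla2 to 0.21 for Idh3g. The members' median was 0.10 with 7 of 9 above 0, against a median of 0.01 over all genes, of which 8910 of 17293 were above 0. With the GC trend removed, Idh3g and Mdh2 no longer passed and Suclg1 alone did, where 1.16% of all genes rose and 0.821% fell (1.98% in either direction). Of all called genes, 41.4% were higher as counted and 58.5% were higher after removal. The members' median was then 0.13, again with 7 of 9 above 0, against 0.00 over all genes with 8508 above 0. DESeq2, another test of the same counts, called 4 members higher, namely Idh3g, Mdh2, Cs and Suclg1. The authors' deposited table of higher genes lists the same 4, with changes of 0.21, 0.18, 0.10 and 0.13 (log2) and adjusted p-values, in that order, of 0.0133, 0.0122, 0.0463 and 0.0477. Their deposited table of lower genes lists no member.

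**Figure D2:**
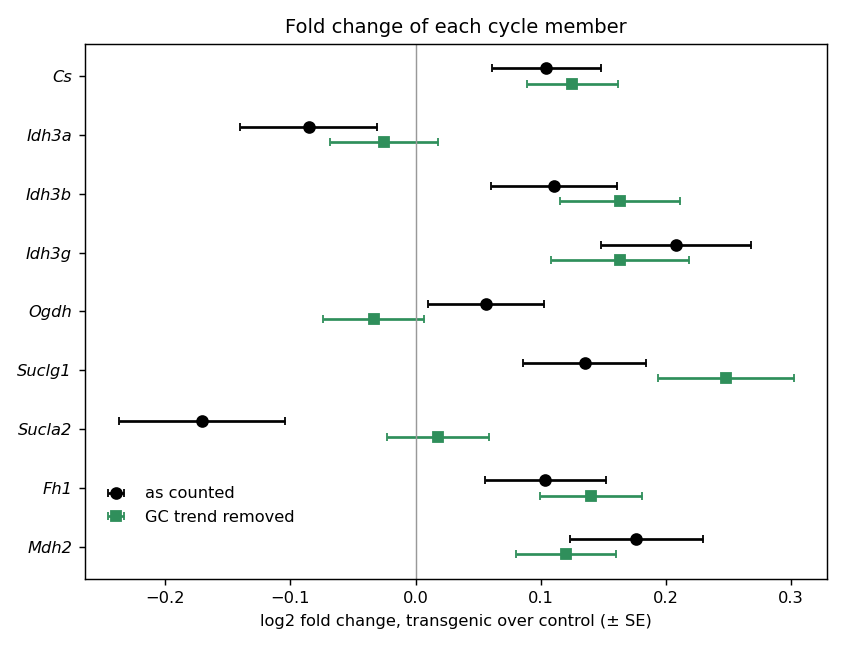
Log2 fold change of each member, transgenic over control, with ± SE, as counted (black circles) and with each library's GC trend removed (green squares). Removal moved Sucla2 to 0.02, against -0.17 as counted, and Suclg1 to 0.25, against 0.14 as counted.

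NAD-dependent isocitrate dehydrogenase, a rate-setting step of the cycle, is built from a catalytic subunit, Idh3a, and from Idh3b and Idh3g, which it needs for assembly and for regulation. Idh3g (ENSMUSG00000002010, chromosome X, 73778963 to 73786897, build mm10) had a lowest level of 141, a median of 148 and a highest level of 153 CPM in transgenic libraries. Controls 1 to 5 had 122, 142, 135, 127 and 111 CPM. In 4 of 6 transgenic libraries the level was above every control, and control 2 overlapped the lower transgenic libraries. Idh3g rose by 0.21 on the log2 scale (SE 0.06, edgeR adjusted p = 0.0331), which is 1.16-fold, and with the GC trend removed it was at 0.16 (SE 0.06, adjusted p = 0.134). The call as counted was lost without transgenic 1, 2, 3, 4 or 5 (adjusted p = 0.0548, 0.0721, 0.0540, 0.0581 and 0.0511) and without control 1, 4 or 5 (0.0742, 0.0719 and 0.0757). The gene is X-linked, and in a fit that also held Xist level its fold change was 0.21 (adjusted p = 0.0320).

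The catalytic Idh3a (ENSMUSG00000032279, chromosome 9, 54586334 to 54604661) had 175 to 203 CPM in transgenic libraries and 180 to 211 CPM in controls. Its fold change was -0.09 (SE 0.05, adjusted p = 0.289), and -0.03 (SE 0.04, adjusted p = 0.816) with the GC trend removed. Idh3b (ENSMUSG00000027406, chromosome 2, 130279309 to 130284547) had 249 to 290 CPM in transgenic libraries and 242 to 267 CPM in controls, at 0.11 (SE 0.05, adjusted p = 0.135) as counted and 0.16 (SE 0.05, adjusted p = 0.0905) after removal. In 5 of 6 transgenic libraries Idh3b was above every control, and transgenic 6, the exception, was at 249 CPM. Without transgenic 6 Idh3b passed the test (adjusted p = 0.0369). Exons of Idh3b overlap those of Nop56, a nucleolar protein gene on the other strand, and the kit is not stated to mark strand, so their reads cannot be told apart where they overlap. Nop56 averaged 66.5 ± 4.07 CPM over the 6 transgenic and 64.6 ± 2.85 CPM over the 5 control libraries (± SD), with a fold change of 0.04 (SE 0.05, adjusted p = 0.610) as counted and 0.01 (SE 0.05, adjusted p = 0.947) with the GC trend removed.

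Per kilobase, Idh3g stood to Idh3a at a ratio of 1.496 ± 0.107 over the 6 transgenic and 1.22 ± 0.107 over the 5 control libraries (± SD). The libraries spanned 1.30 to 1.62 in transgenic and 1.07 to 1.36 in control mice, overlapping through transgenic 6 and control 2. With the GC trend removed the ratio was 1.45 ± 0.0774 in transgenic libraries and 1.27 ± 0.0968 in controls. Idh3b stood to Idh3a at 2.22 ± 0.229 in transgenic libraries and 1.93 ± 0.0956 in controls. Transgenic 6, at 1.82, was below every control in this ratio, and the other 5 transgenic libraries, at 2.14 or more, were above every control.

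The promoter of Idh3g is shown because it holds matches to motifs of mitochondrial gene regulators discussed below. It covers 250 bases before the RefSeq start on the minus strand, chrX:73786898-73787147 (GRCm38.p6), with matches to AAGATGGCG (YY1) and CCGGAAG (ETS factors such as GABPA) in capitals.
Idh3g: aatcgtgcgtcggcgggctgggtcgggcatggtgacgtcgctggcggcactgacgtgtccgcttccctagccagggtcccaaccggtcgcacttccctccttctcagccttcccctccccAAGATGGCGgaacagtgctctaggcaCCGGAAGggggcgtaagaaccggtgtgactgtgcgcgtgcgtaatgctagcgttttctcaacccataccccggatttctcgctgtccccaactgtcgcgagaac
The YY1 match starts at -130 and the ETS match at -104 from the start.

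Mdh2 (ENSMUSG00000019179, chromosome 5, 135778480 to 135790398) encodes mitochondrial malate dehydrogenase, which regenerates oxaloacetate and also serves the malate-aspartate shuttle. Its level was 264 at the lowest, 298 at the median and 308 CPM at the highest in transgenic libraries. Controls 1 to 5 had 244, 266, 257, 259 and 257 CPM. Transgenic 6, at 264 CPM, lay below control 2, and the other 5 transgenic libraries were above every control. Mdh2 rose by 0.18 (SE 0.05, edgeR adjusted p = 0.0382), and with the GC trend removed it was at 0.12 (SE 0.04, adjusted p = 0.130). The call as counted was lost without transgenic 1, 2, 3 or 4 (adjusted p = 0.0775, 0.0873, 0.0834 and 0.0602) and without control 1, 3, 4 or 5 (0.0876, 0.0672, 0.0768 and 0.0759).

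The start of the Mdh2 promoter window is shown for a repeated element. It covers the 81 bases of the RefSeq window that lie before every annotated Mdh2 exon, on the plus strand, chr5:135778399-135778479 (GRCm38.p6), with the palindrome CTCGCGAG in capitals.
Mdh2: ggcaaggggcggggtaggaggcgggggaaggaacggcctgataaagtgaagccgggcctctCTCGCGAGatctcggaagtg
That match starts at -189 from the RefSeq start. The palindrome occurs again at -62 and -28, inside the first exon that GENCODE gives one Mdh2 transcript. It occurred in 0.919% of the 32851 promoter windows of the same kind and in no other member with a window.

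Cs (ENSMUSG00000005683, chromosome 10, 128337734 to 128362479) encodes citrate synthase, which joins acetyl-CoA to oxaloacetate and is widely used as a marker of mitochondrial content. It had 296 CPM at the lowest, 308 at the median and 317 at the highest in transgenic libraries. Controls 1 to 5 had 271, 294, 289, 296 and 278 CPM. Every transgenic library was above every control, as it was for 3.04% of all genes tested (4.73% were apart in the lower direction, 7.77% in either), although the lowest transgenic library and the highest control differed by less than 1 CPM (296.4 against 295.9). The fold change was 0.10 (SE 0.04) and did not pass with edgeR (adjusted p = 0.108), nor with the GC trend removed (0.13, SE 0.04, adjusted p = 0.0899). Csl, a citrate synthase-like gene that is 91.9% identical to Cs over 1522 bases, had 2 to 11 counts per library.

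Fh1 (ENSMUSG00000026526, chromosome 1, 175600374 to 175625635), fumarase, turns fumarate into malate. It had 74.7 to 81.8 CPM in transgenic libraries and 67.6 to 77.5 CPM in controls. Its fold change was 0.10 (SE 0.05, adjusted p = 0.145), and 0.14 (SE 0.04, adjusted p = 0.0899) with the GC trend removed. After removal each transgenic library, at 76.1 to 82.1 CPM, was above each control, at 66.9 to 75.5 CPM. Cs and Suclg1 were also apart after removal, so that 3 of 9 members did not overlap, where 1.99% of all genes did so in this direction, 1.45% in the lower and 3.43% in either.

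Succinyl-CoA ligase makes the cycle's nucleoside triphosphate. Suclg1 is its shared alpha subunit, Sucla2 the beta subunit of the ATP-forming enzyme and Suclg2 that of the GTP-forming enzyme. Suclg1 (ENSMUSG00000052738, chromosome 6, 73248382 to 73276911) had 89.6 CPM at the lowest, 91.8 at the median and 94.2 at the highest in transgenic libraries. Controls 1 to 5 had 82.2, 88.3, 89.9, 81.8 and 75.9 CPM, so that control 3 alone reached the transgenic libraries. Its fold change was 0.14 (SE 0.05, edgeR adjusted p = 0.0708) as counted, and it passed without control 2 (adjusted p = 0.0460). With the GC trend removed Suclg1 rose by 0.25 (SE 0.05, adjusted p = 0.0390), at 88.6 to 102 CPM in transgenic libraries and 72.8 to 86.9 CPM in controls, without overlap. That call remained without transgenic 5, transgenic 6 or control 2, and was lost without each of the other 8 libraries. Without transgenic 1, 2, 3 and 4 the adjusted p was 0.0815, 0.101, 0.0949 and 0.0695, and without control 1, 3, 4 and 5 it was 0.0944, 0.0596, 0.0997 and 0.107.

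Sucla2 (ENSMUSG00000022110, chromosome 14, 73525319 to 73596142) had a negative fold change as counted, which did not pass. It had 113 CPM at the lowest, 134 at the median and 142 at the highest in transgenic libraries, and 134, 141, 161, 150 and 144 CPM in controls 1 to 5. The groups overlapped, and the fold change was -0.17 (SE 0.07, edgeR adjusted p = 0.0885). Without transgenic 6 it passed the test (adjusted p = 0.0406). Once the GC trend was removed it was at 0.02 (SE 0.04, adjusted p = 0.865), with 129 to 143 CPM in transgenic libraries and 128 to 145 CPM in controls. Sucla2 has the lowest GC content of the members, 43.2%, and the fitted GC trends of the groups differed by -0.19 at that content.

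Per kilobase, Suclg1 stood to Sucla2 at 0.617 ± 0.0685 over the 6 transgenic and 0.496 ± 0.0378 over the 5 control libraries (± SD). The libraries did not overlap, at 0.549 to 0.722 in transgenic and 0.454 to 0.542 in control mice. With the GC trend removed they were at 0.559 to 0.682 in transgenic and 0.470 to 0.553 in control mice, still without overlap but close. Suclg1 by itself was also apart after removal, and how often the ratio of other gene pairs is apart was not counted. Transgenic 1, which had the steepest GC slope, had the highest ratio both times. Suclg2 was sparse, at 8.94 ± 1.19 CPM in transgenic libraries and 8.19 ± 0.835 CPM in controls, with a fold change of 0.13 (SE 0.10, adjusted p = 0.422) as counted and 0.26 (SE 0.09, adjusted p = 0.119) with the GC trend removed. Sucla2 exceeded Suclg2 per kilobase 17.0 ± 1.65-fold in transgenic libraries and 20.7 ± 0.840-fold in controls. Transgenic 3, at 19.8, was the library that reached the control range.

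**Figure D3:**
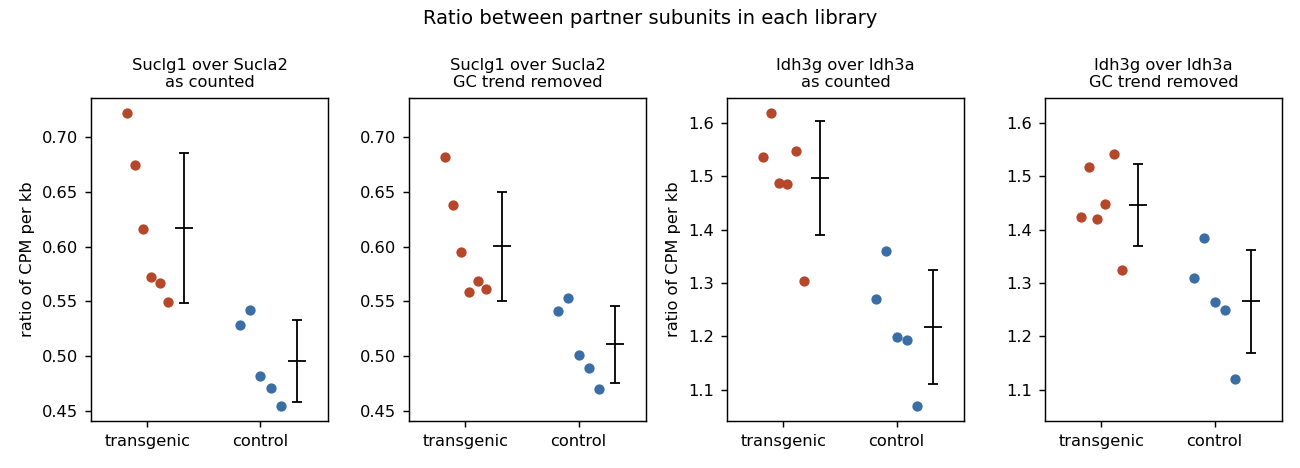
Ratio of CPM per kilobase of exon between partner subunits in 6 transgenic (red) and 5 control libraries (blue), as counted and with the GC trend removed; bars give mean ± SD, and axes do not start at 0. Suclg1 over Sucla2 did not overlap between the groups, and Idh3g over Idh3a overlapped.

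Ogdh (ENSMUSG00000020456, chromosome 11, 6291633 to 6356642) is the decarboxylating subunit of the oxoglutarate dehydrogenase complex. It had 280 to 303 CPM in transgenic libraries and 266 to 299 CPM in controls. The fold change was 0.06 (SE 0.05, edgeR adjusted p = 0.412) as counted and -0.03 (SE 0.04, adjusted p = 0.717) with the GC trend removed, so its sign turned. Ogdh has the highest GC content of the members, 52.5%. Of its partners, Dlst, the succinyl transferase, was at 0.07 (SE 0.04, adjusted p = 0.224). Dld, the lipoamide dehydrogenase that the pyruvate dehydrogenase complex shares, fell by 0.30 (SE 0.09, adjusted p = 0.0393), with 104 ± 15.9 CPM in transgenic libraries and 128 ± 6.19 CPM in controls. Dld has a GC content of 40.6% and was at 0.00 (SE 0.04, adjusted p = 0.986) with the GC trend removed. Ogdhl, a brain-expressed relative of Ogdh, was at -0.25 (SE 0.17, adjusted p = 0.324) as counted and -0.37 (SE 0.17, adjusted p = 0.251) with the GC trend removed.

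**Figure D4:**
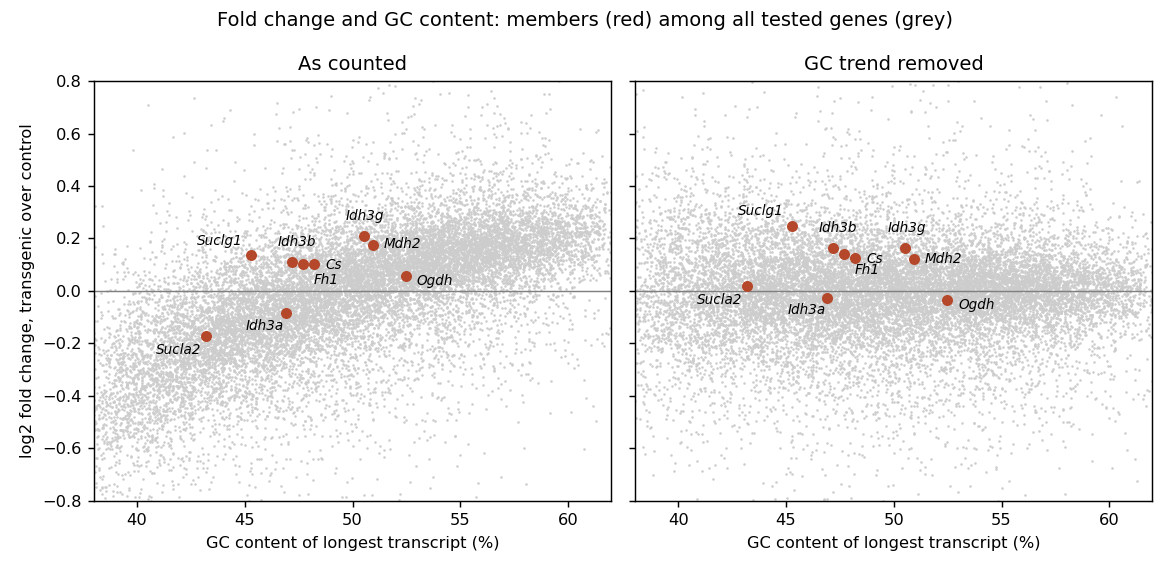
Log2 fold change, transgenic over control, against the GC content of the longest transcript for all tested genes (grey) and the 9 members (red), as counted (left) and with the GC trend removed (right). Genes outside the axes are not drawn. As counted, Sucla2 (43.2% GC, -0.17) lies lowest of the members and Idh3g (50.5% GC, 0.21) highest.

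Across all genes the fold change as counted followed GC content, with a Spearman correlation of 0.684 over 17246 genes that share the same libraries, and 0.0136 after removal. Across the 9 members it was 0.40 as counted and -0.22 after removal. Member GC content ran from 43.2% to 52.5% with a median of 47.7%, against 49.6% over all genes. The mean fitted trend of transgenic minus control libraries, in log2 units, was -0.19 at the GC content of Sucla2, -0.11 for Suclg1 and -0.06 for Idh3a. It was -0.05 for Idh3b, -0.04 for Fh1 and -0.02 for Cs. For Idh3g, Mdh2 and Ogdh, the members of highest GC content, it was above 0, at 0.04, 0.06 and 0.09.

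The other 10 cycle genes had a median of 0.11 (0.07 with the GC trend removed), and 3 rose while 1, Dld, fell. Idh2, the NADP-dependent isocitrate dehydrogenase, rose by 0.24 (SE 0.06, edgeR adjusted p = 0.0171), with 45.8 ± 3.57 CPM in transgenic libraries and 38.7 ± 1.10 CPM in controls. Sdhb and Sdhc, the iron-sulphur and a membrane subunit of succinate dehydrogenase, rose by 0.16 (adjusted p = 0.0381) and 0.23 (adjusted p = 0.0223). After GC removal Idh2 was at 0.10 (SE 0.04, adjusted p = 0.263) and Sdhb at 0.05 (SE 0.04, adjusted p = 0.589). Sdhc had 89.1 to 105 CPM in transgenic libraries and 72.3 to 87.5 CPM in controls, and it was the one gene of these 10 still called with the GC trend removed (0.23, SE 0.05, adjusted p = 0.0467).

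**Figure D5:**
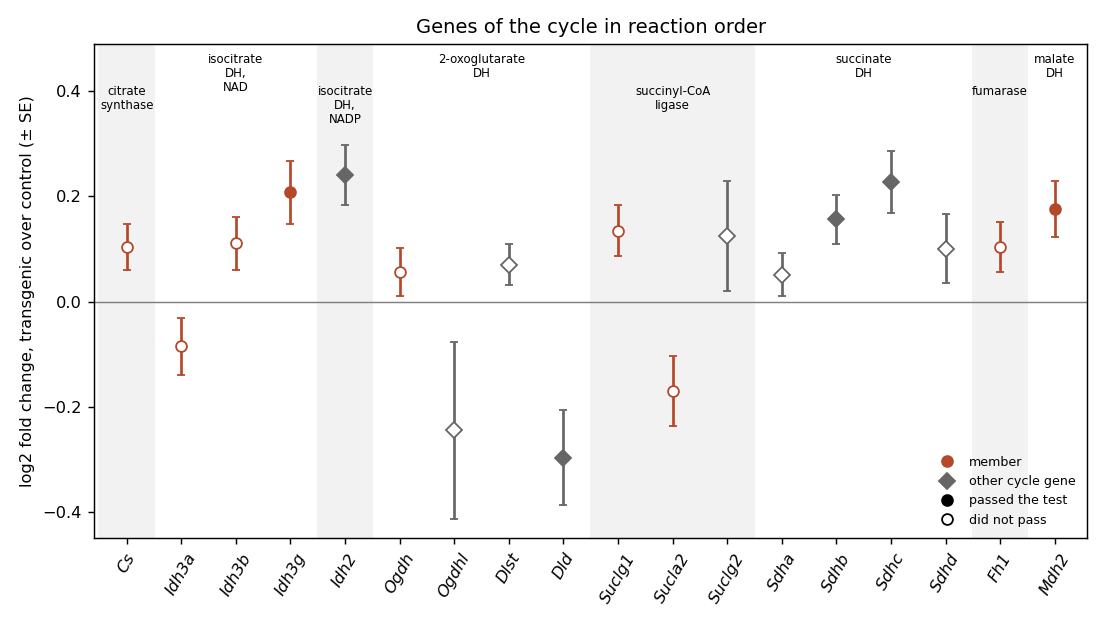
Log2 fold change, transgenic over control, with ± SE, for the 9 members (red circles) and 9 other cycle genes (grey diamonds) in the order of the reactions, as counted; filled symbols passed the edgeR test. Idh3g, Idh2, Sdhb, Sdhc and Mdh2 rose and Dld fell. DH, dehydrogenase.

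Of 12 genes of pyruvate entry, 1 rose and 1 fell, at a median of -0.06 (0.03 with the GC trend removed). Pdk1 and Pdk2 are kinases that switch off pyruvate dehydrogenase. Pdk1 fell by 0.23 (SE 0.05, edgeR adjusted p = 0.0144), with 68.8 ± 3.30 CPM in transgenic libraries and 80.6 ± 4.24 CPM in controls. Pdk2 rose by 0.18 (SE 0.05, adjusted p = 0.0271). After GC removal Pdk1 was at -0.15 (adjusted p = 0.0628), with its groups still apart, and Pdk2 at 0.02 (adjusted p = 0.860). The subunits Pdha1, Pdhb and Dlat were at -0.04, -0.03 and -0.16 as counted and 0.06, 0.05 and -0.10 after removal, none of them called.

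Of 19 genes that feed or drain the cycle, 3 rose, at a median of 0.07 (0.04 with the GC trend removed). Pcx, pyruvate carboxylase, rose by 0.21 (edgeR adjusted p = 0.0259). Slc25a1, the citrate carrier, and Slc25a10, the dicarboxylate carrier, rose by 0.24 and 0.25 (adjusted p = 0.0171 and 0.0316). After GC removal these 3 were at 0.04, 0.05 and 0.05, none of them called. Slc25a12, the aspartate-glutamate carrier of neurons, was then the one gene called, at 0.20 (SE 0.04, adjusted p = 0.0420), against 0.13 (adjusted p = 0.0582) as counted. The 4 lipoate pathway genes had a median of 0.00 (-0.01 with the GC trend removed).

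Of 11 regulators of mitochondrial gene expression, 3 fell, at a median of -0.14 (-0.04 with the GC trend removed). Ppargc1a, a coactivator of mitochondrial biogenesis, fell by 0.34 (edgeR adjusted p = 0.0250), and Gabpa, an ETS factor, by 0.46 (adjusted p = 0.0125). Both have transcripts of low GC content, 41.7% and 41.4%, and with the GC trend removed they were at -0.09 (adjusted p = 0.325) and -0.19 (adjusted p = 0.146). Yy1, a zinc finger factor, fell by 0.14 (SE 0.04, adjusted p = 0.0391). It averaged 36.3 ± 1.03 CPM over the 6 transgenic and 40.1 ± 1.20 CPM over the 5 control libraries (± SD), without overlap. Yy1 was the one regulator still called after removal (-0.19, SE 0.04, adjusted p = 0.0404). Nrf1, Esrra and Tfam were at 0.07, 0.20 and -0.07 as counted and 0.18, 0.17 and 0.05 after removal, none of them called.

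RefSeq promoter windows, 250 bases before to 50 after a start on GRCm38.p6, were listed for 8 of the 9 members, all but Idh3a. These 8 had 13 windows. A member was counted if any of its windows matched, while the percentages are of single windows, so the 2 are not in like units. Both strands were searched for the letters given here. AAGATGGCG (YY1) was found in 1 member, Idh3g, and in 1.40% of all windows. CCGGAAG (ETS) was found in 2 members, Idh3g and Idh3b, and in 8.86% of all windows. GCGCANGCG (NRF1) was found in 2 members, Ogdh and Sucla2, and in 6.25% of all windows. TCAAGGTCA (ERR) was found in 0.423% of all windows and in none of these members. A match describes the letters and is not a measured binding site.

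Next to related pathways, 40 of 70 nuclear-encoded subunits of the respiratory complexes rose, at a median of 0.21, or 22 risen at 0.15 with the GC trend removed. The difference from the members was not tested. Of 16 glycolysis genes 1 rose, Ldhb (0.21, and 0.12 with the GC trend removed, edgeR adjusted p = 0.0192 and 0.177). The median over that list was 0.14, and 0.00 with the GC trend removed.

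Over the 11 libraries, each member was set beside the protein-coding gene, of 14645 that are no member, whose log2 CPM was most like its own. These were Hsd17b10 for Cs (Pearson r = 0.973), Sec61g for Idh3a (0.952), Pgm1 for Idh3b (0.969), Gm16286 for Idh3g (0.974) and Best1 for Ogdh (0.914). They were Tm2d3 for Suclg1 (0.992), Nudcd2 for Sucla2 (0.984), Atp5mpl for Fh1 (0.972) and Dctn2 for Mdh2 (0.979). All share the same libraries and their GC trends, and the best of many genes is bound to be close. Both groups are pooled in these values, so the difference between groups enters r. Among members, pooled in the same way, the closest were Cs and Mdh2 (r = 0.888), and the most opposed were Sucla2 and Mdh2 (r = -0.734). As deviations from the group means these were 0.715 and -0.493, and the closest pair was Idh3a and Sucla2 (0.830, and 0.870 pooled).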

How the data were processed

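The authors deposited a raw count per Ensembl gene for each of 11 libraries, made from single-end reads of 50 bases on build mm10. The submitters' processing notes name STAR 2.5.2b, Subread 1.5.1 with featureCounts, and FastQC 0.11.5. Their settings are not stated there. The authors also deposited tables of 1780 higher and 2014 lower genes, each with a log2 fold change, an adjusted p-value and a signal per library, which is the count divided by one size factor.

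Names, positions, exon lengths and GC content of the longest transcript came from GENCODE vM21 on mm10, which named 48349 genes. Genes were filtered with filterByExpr, scaled with TMM and tested with edgeR 4.0.16 (quasi-likelihood F test, Benjamini-Hochberg over all 17293 genes) in R 4.3.3, with no covariate, since the labels give none. A gene was called at an adjusted p under 0.05. Log2 CPM used a prior count of 2. The GC trend of each library was a lowess curve with a span of 0.3, entered as an offset. A standard error is the fold change over the root of its F value. Within groups, chi-square over degrees of freedom between libraries was 6.27 to 53.4, and no library was merged with another. The test was tried on simulated counts. Copies of members were sought with BLAST 2.17.0, at 90% identity or more over at least 200 bases.

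The alternatives used DESeq2 1.42.0, limma 3.58.1 and sva 3.50.0. Members, gene lists and alternatives were chosen with earlier results of these data known, and promoter motifs after the promoters were seen; longer forms of 3 of them (YY1, NRF1 and the palindrome) were searched first, and the NRF1 form then matched 1 member, Sucla2. Named genes were all members, called genes of the metabolic lists, the regulators, and the most similar gene of each member. Genes named beyond these were chosen after their values were seen. Same-numbered libraries of the groups are not stated to be paired. Some results of the gene lists are not reported here.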

Additional observations from a re-analysis of the deposited data

How the results depend on the processing

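The count of 3094 called genes was 342, 289 and 747 with the GC trend removed, with GC and length trends removed, and with the GC trend removed together with the replicate block. It was 4774 with limma voom and sample weights. The share of calls that were higher was 41.4% as counted, 58.5% with the GC trend and 67.5% with GC and length trends removed. Leaving out 1 library gave 1155 to 4712 genes, 0 to 3 members called higher and 0 to 1 called lower. The gene count fell by over 1.5 times without transgenic 1, 2 or 3 or control 1, 3, 4 or 5, and grew by as much without transgenic 6. Against 2 members called higher, there were 0 without a filter, 1 with the GC trend and 1 with GC and length trends removed, 4 with DESeq2, 4 with the replicate block and 5 with limma voom. Against 0 called lower, there was 1, Sucla2, with the replicate block and 1 with a surrogate variable. With 1 library left out as counted, Ogdh ran from 0.0378 to 0.0824 and Sucla2 from -0.1995 to -0.1309. Ogdh turned to -0.03 under each of the 3 GC fits (-0.0336, -0.0332 and -0.0349) and to -0.0515 to -0.0155 with 1 library left out as well. Sucla2 turned to 0.0181, 0.0071 and 0.0204 in those fits and to 0.0059 to 0.0451 with 1 library left out as well, except without control 1, at -0.0026. The cause of these moves was not tested. Apart from the GC fits, no alternative turned a member's sign. The fits with a library left out after GC removal were added after seeing the data. Same-numbered libraries correlated at 0.197, -0.0267, -0.185, -0.0514 and 0.0232, so the numbers were not taken as pairs. Each member had at least 964 counts in each library.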
